A study of Mus musculus with 10 samples.

Results

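Notch receptors, their ligands and their target genes were examined in sorted mouse skeletal stem and stromal cells. The rule listed 10 genes, namely the receptors Notch1, Notch2, Notch3 and Notch4, the ligands Jag1, Jag2, Dll1 and Dll4, and the targets Hes1 and Hey1. Of these, 8 were matched by gene symbol in the expression table of 15078 genes, and Jag2 and Dll4 were not analysed here. With Dll1 below the minimum mean value of 10 set for testing, 7 members were tested among 13644 genes.

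RNA sequencing was done on 10 libraries of CD51+CD200+ cells, 1000 to 3000 sorted cells each, from mice that were usually 6 to 12 weeks old. Graft BM-MSCs (n = 4) were Tomato+ mesenchymal stem cells (MSCs) from the bone marrow of femurs carrying the POSTN-CRE transgene and a Tomato reporter, 5 months after the femurs had been placed under the skin of wild-type recipients. Recipients received tamoxifen for 10 days from day 2 after transplantation, which switches on the reporter in cells that express Postn at that time, a gene used by periosteal cells and also by osteoblasts and fibroblasts. BM-MSCs (n = 3, bone marrow) and P-SSCs (n = 3, periosteal skeletal stem cells, from the membrane around the bone) were taken from wild-type mice at steady state that received no treatment. Each library held RNA of distinct mice, and BM-MSC 2+4 and P-SSC 2+5 each combined RNA of 2 mice. Graft cells were taken 5 months after the femurs, and whether the steady-state mice were matched to them in age is not stated. Graft and steady-state groups thus differ in genotype, tamoxifen, transplantation, the time after it and the Tomato gate together. The effects of these, and of any difference in age, cannot be told apart.

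Notch receptors are transmembrane proteins that are activated by ligands of the Jagged and Delta-like families on neighbouring cells. Ligand binding leads to cleavage of the receptor by ADAM proteases and then by gamma-secretase, and the freed intracellular domain enters the nucleus, where it joins RBPJ and Mastermind proteins and switches on genes of the Hes and Hey families. In bone, Notch signalling is known to restrain osteoblast differentiation of mesenchymal progenitors, and Notch3 is a well-known receptor of pericytes and vascular smooth muscle.

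Values are normalised read counts, that is, reads of a gene after scaling by the size factor of its library. Total reads ranged from 15415421 to 25223295 per library, and 3 reads, taken as the smallest detectable amount, corresponded to 0.119 to 0.195 ppm of the reads. Graft libraries held more zeros: of the genes at 100 or above in the rest of a group, 0.898% to 8.78% were at 0 in the remaining graft library, and 0.363% or less in the remaining steady-state library. A gene at 0 is therefore described as listed at 0. The libraries also fell into 2 sets by the level of genes rich in G and C bases (GC content over 65%) relative to genes of 50 to 60% GC. The 4 graft libraries and P-SSC 4 were high, by 1.52 to 2.80 on the log2 scale, and the 3 BM-MSC libraries, P-SSC 1 and P-SSC 2+5 were low, at -1.81 to -1.51. All graft libraries were high and all BM-MSC libraries low, so this property and the group cannot be told apart in that comparison. Marrow stroma markers (Lepr, Cxcl12, Kitl, Adipoq, Ebf3 and Foxc1, all 6 in the table) summed to between 667905 and 819818 in graft BM-MSCs. They summed to at least 830908 in BM-MSCs and to at most 8883 in P-SSCs. Cxcl12 made up most of these sums, with 560618 to 736781 in the graft and 743661 to 995477 in BM-MSCs. Kitl was also lower in every graft library than in every BM-MSC library, and Lepr and Adipoq overlapped between these groups. Ebf3 and Foxc1 went the other way, with every graft library above every BM-MSC library. Their medians were 1143.9 and 4752.2 in the graft and 341.3 and 293.9 in BM-MSCs. Periosteum markers (Postn, Ctsk, Fmod, Prrx1 and Thbs4, all 5 in the table) summed to between 114103 and 124137 in P-SSCs and to at most 15258 elsewhere. Fmod, Postn and Thbs4 carried the P-SSC sum, and Thbs4 was at 0 in every graft library. Ctsk overlapped between the graft (5010 to 9680) and P-SSCs (5001 to 8116), as did Prrx1 (455 to 1448 and 1010 to 1875).

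The receptor that set the groups apart was Notch3. Both marrow populations carried Notch3 at several times the level of P-SSCs, whereas Notch2 was the leading receptor of P-SSCs. The promoters of these receptors are shown because their order was opposite in periosteum and marrow. They are the 250 bases before the RefSeq start of each gene (GRCm38.p6), for Notch2 chr3:98013288-98013537 on the plus strand and for Notch3 chr17:32166891-32167140 on the minus strand, each printed 5′ to 3′ along its gene. Capitals mark GC boxes (GGGCGG, or CCGCCC where it lies on the other strand), the motif bound by Sp1-type factors.
Notch2: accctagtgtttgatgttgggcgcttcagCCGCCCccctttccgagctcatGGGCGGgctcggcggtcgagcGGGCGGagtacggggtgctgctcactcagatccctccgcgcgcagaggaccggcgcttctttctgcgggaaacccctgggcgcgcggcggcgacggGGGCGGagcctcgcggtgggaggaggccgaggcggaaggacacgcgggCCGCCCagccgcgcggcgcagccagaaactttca
Notch3: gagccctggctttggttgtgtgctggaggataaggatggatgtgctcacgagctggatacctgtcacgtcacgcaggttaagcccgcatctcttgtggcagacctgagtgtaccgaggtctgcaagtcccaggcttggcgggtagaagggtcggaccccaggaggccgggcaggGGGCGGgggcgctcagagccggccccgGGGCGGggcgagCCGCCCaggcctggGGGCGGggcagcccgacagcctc
The Notch2 window held 5 GC boxes and the Notch3 window 4, and 32.7% of the 32851 promoter windows of the table held at least 1. The RBPJ core motif TGGGAA was found on neither strand of these windows, and 21.6% of all windows held it. The GC content was 72% for Notch2 and 68.8% for Notch3.

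Notch3 (ENSMUSG00000038146, chr17:32120820-32166852 on GRCm38, minus strand) had normalised read counts of 825, 923, 2117 and 790 in graft BM-MSC 1 to 4. In BM-MSC 1, 2+4 and 3 the counts were 1098, 1158 and 1180. P-SSC 1, 2+5 and 4 held 107, 248 and 284. Every marrow library, grafted or not, lay above every P-SSC library, and graft BM-MSC 3 stood above the rest of its group. Group means with their SD were 1164 ± 638 for the graft (n = 4), 1145 ± 42.5 for BM-MSCs (n = 3) and 213 ± 93.6 for P-SSCs (n = 3). The log2(value + 1) scale understates changes between low values, and a library listed at 0 can enlarge a difference or turn its sign. On this scale Notch3 was higher by 2.43 in graft BM-MSCs than in P-SSCs (SE 0.46, adjusted p = 0.00453, limma with Benjamini-Hochberg adjustment over all genes tested). It was lower in P-SSCs than in BM-MSCs by a log2 difference of -2.54 (SE 0.50, adjusted p = 0.00761, limma). The difference between graft BM-MSCs and BM-MSCs was -0.11, with a 95% interval from -1.14 to 0.92 (adjusted p = 0.915, limma), so a change of up to about that size in either direction could not be seen. Both calls held when any 1 library was left out (adjusted p from 0.00397 to 0.0371, limma). Within the 5 libraries low in GC-rich genes, P-SSCs remained below BM-MSCs, by -2.80 (adjusted p = 0.0134, limma). With the GC set of each library as a covariate, which P-SSC libraries alone can inform, the graft difference to P-SSCs was 1.90 (adjusted p = 0.134, limma). The GC content of the Notch3 transcript was 59.6%, above that of 94.95% of the genes tested. The antisense gene Gm17276 overlaps Notch3. It ranged from 0 to 34.3 over the libraries, and the strand setting of the counting is not given in the sources used here, so reads of the overlap cannot be assigned with certainty.

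**Figure D1:**
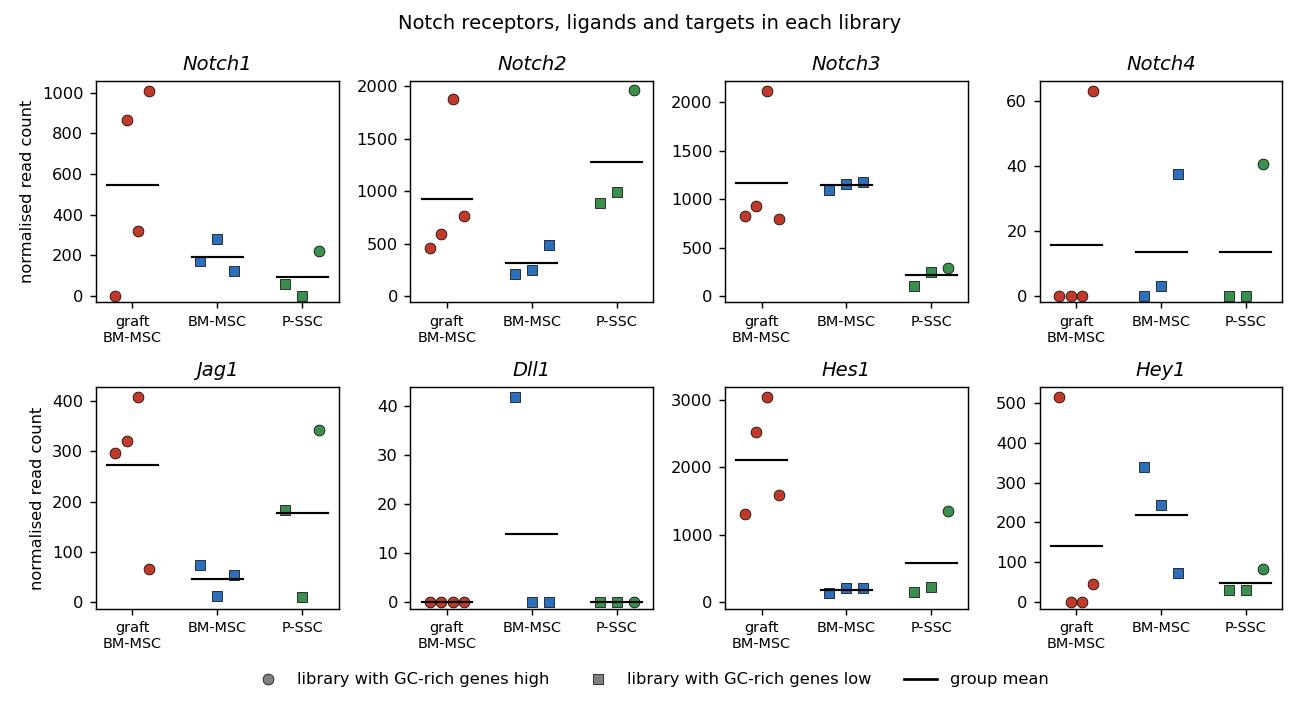
Normalised read count (vertical axis, linear) of the 8 genes in the 10 libraries of the 3 groups, 1 point per library. Circles are libraries high and squares libraries low in GC-rich genes, and lines are group means. Notch3 lies between 107 and 284 in P-SSCs and at 790 or above in both marrow groups, and Hes1 lies at 1303 or above in all circles and at 229 or below in all squares.

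Notch2 (ENSMUSG00000027878, chr3:98013527-98150361, plus strand) ran the other way between the steady-state populations. Its counts were 885, 995 and 1964 in P-SSC 1, 2+5 and 4 and 211, 251 and 485 in BM-MSC 1, 2+4 and 3. Graft BM-MSC 1 to 4 held 461, 588, 1884 and 760. P-SSCs and BM-MSCs did not overlap, and graft BM-MSCs spanned both ranges. The log2 difference of P-SSCs to BM-MSCs was 2.02 (95% interval 0.73 to 3.31), but it missed the threshold (adjusted p = 0.0577, limma). It passed with a pseudocount of 5 (adjusted p = 0.0498, limma), with DESeq2 on the recovered reads (adjusted p = 0.0175) and without graft BM-MSC 3 (adjusted p = 0.0246, limma). Within the libraries low in GC-rich genes it was 1.66 (adjusted p = 0.0656, limma). Graft BM-MSCs differed from BM-MSCs by 1.42 (adjusted p = 0.136, limma) and from P-SSCs by -0.60 (95% interval -1.81 to 0.60, adjusted p = 0.474, limma), a difference that took the opposite sign, 0.13, after a correction for GC content. The gene Gm42820, which overlaps Notch2 on the same strand, ranged from 0 to 40.6.

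Notch1, a receptor with a broad role in stem and progenitor cells, varied most within groups. Graft BM-MSC 1 to 4 held 0, 864, 322 and 1007, BM-MSC 1, 2+4 and 3 held 172, 283 and 121, and P-SSC 1, 2+5 and 4 held 58.2, 0 and 222. The highest values were in the graft, but graft BM-MSC 1, the most deeply sequenced library, was listed at 0. No Notch1 difference passed the test (adjusted p from 0.524 to 0.930, limma), and the SE of the graft differences was 2.49 on the log2 scale. The graft difference to BM-MSCs was -0.49, and it was 1.85 without graft BM-MSC 1. Notch4, best known from endothelial cells, was at 63.0 in graft BM-MSC 4, 37.5 in BM-MSC 3 and 40.7 in P-SSC 4, and at 3.16 or below in the other 7 libraries. Each group thus had 1 library with Notch4 well above the floor, and the group means of 15.8, 13.5 and 13.6 were close together (adjusted p from 0.796 to 0.994, limma).

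Because a long transcript gathers more reads, receptors were also compared per kb of exon within each library. Notch3 made up 71.5 to 81.1% of the summed receptor level per kb in BM-MSCs, 39.6 to 70.5% in graft BM-MSCs and 13.3 to 25.0% in P-SSCs, with no overlap between groups. Notch2 made up 75.0 to 82.6% in P-SSCs, 23.8 to 38.1% in graft BM-MSCs and 11.7 to 22.1% in BM-MSCs. The ratio of Notch3 to Notch2 per kb was 3.24 to 6.94 in BM-MSCs, 1.38 to 2.39 in graft BM-MSCs and 0.161 to 0.333 in P-SSCs. In the order of this ratio the graft cells lay between both steady-state populations, and in graft BM-MSCs Notch1 took a further 0 to 28.7%. These shares are descriptions of the libraries and were not tested, and P-SSC 4, high in GC-rich genes like the graft, had a ratio of 0.193.

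**Figure D2:**
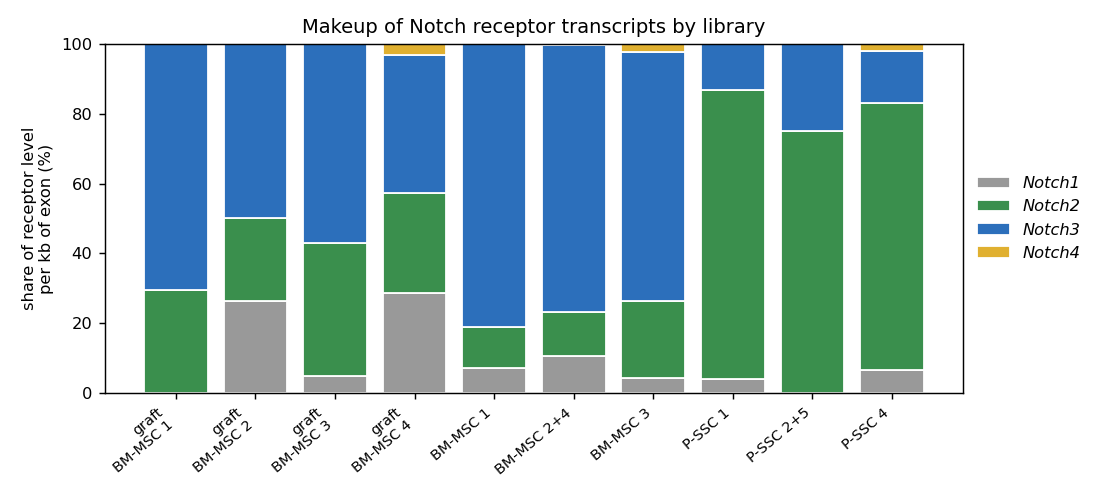
Share of each of the 4 Notch receptors in the summed receptor level per kb of exon (vertical axis, percent), 1 bar per library. Notch3 fills most of the bar in BM-MSCs (71.5 to 81.1%), Notch2 in P-SSCs (75.0 to 82.6%), and graft BM-MSCs show both with Notch1 between 0 and 28.7%.

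Among the ligands, Jag1 (ENSMUSG00000027276, chr2:137081456-137116644, minus strand), the main Jagged ligand of stromal and vascular cells, was detected in every library. Graft BM-MSC 1 to 4 held 296, 321, 408 and 66.5, BM-MSC 1, 2+4 and 3 held 73.1, 11.6 and 53.0, and P-SSC 1, 2+5 and 4 held 183, 10.2 and 342. Of the 4 graft libraries, 3 lay above every BM-MSC library, and the fourth overlapped them. The mean was 273 ± 146 (SD, n = 4), 46.0 ± 31.4 (SD, n = 3) and 178 ± 166 (SD, n = 3). The log2 difference of graft BM-MSCs to BM-MSCs was 2.61, with a 95% interval from -0.25 to 5.48 (adjusted p = 0.236, limma), and the other differences were 1.35 and 1.27 (adjusted p = 0.50 and 0.840, limma). With the GC set of the library as a covariate the graft difference to BM-MSCs was -0.30. Dll1, a Delta-like ligand, was at 41.8 in BM-MSC 1 and listed at 0 in the other 9 libraries, a level too low to compare.

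Of the targets, Hes1 (ENSMUSG00000022528, chr16:30064384-30067796, plus strand), a transcriptional repressor and direct target of the Notch intracellular domain, passed the test in both comparisons of the graft. Graft BM-MSC 1 to 4 had counts of 1303, 2515, 3037 and 1591. BM-MSC 1, 2+4 and 3 held 132, 214 and 208, and P-SSC 1, 2+5 and 4 held 145, 229 and 1348. All graft libraries lay above all BM-MSC libraries, while P-SSC 4 lay within the range of the graft. The log2 difference of graft BM-MSCs was 3.46 to BM-MSCs (SE 0.69, adjusted p = 0.0151, limma) and 2.48 to P-SSCs (SE 0.69, adjusted p = 0.0313, limma), and P-SSCs differed from BM-MSCs by 0.98 (95% interval -0.66 to 2.61, adjusted p = 0.655, limma).

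The level of Hes1 moved with the GC sets of the libraries. It was between 1303 and 3037 in the 5 libraries high in GC-rich genes and between 132 and 229 in the 5 low ones. The GC content of Hes1 itself was 50.7%, near the middle of the genes tested (above 55.2% of them), and a correction for GC content left the graft differences at 4.08 and 3.10 (adjusted p = 0.00777 and 0.0112, limma). With the GC set as a covariate they were 0.58 to BM-MSCs and 0.56 to P-SSCs (adjusted p = 0.892 and 0.679, limma). Within the libraries low in GC-rich genes, P-SSCs and BM-MSCs differed by 0.02 (adjusted p = 0.991, limma). Of the 65 tested members and other pathway genes, 7.69% were higher in every library of the high set than in every library of the low set and 3.08% were lower, against 6.67% and 3.61% of all genes tested. In the comparison with BM-MSCs the GC set and the graft cannot be told apart. With edgeR on recovered reads, Hes1 missed the threshold in both graft comparisons (adjusted p = 0.0501 to BM-MSCs and 0.125 to P-SSCs). The call against P-SSCs was lost without graft BM-MSC 2, 3 or 4, BM-MSC 3, P-SSC 1 or P-SSC 2+5 (adjusted p from 0.0503 to 0.140, limma), and without P-SSC 4 the difference was 3.44 (adjusted p = 0.000879, limma). The call against BM-MSCs was lost without BM-MSC 1, 2+4 or 3 (adjusted p from 0.0514 to 0.0639, limma).

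**Figure D3:**
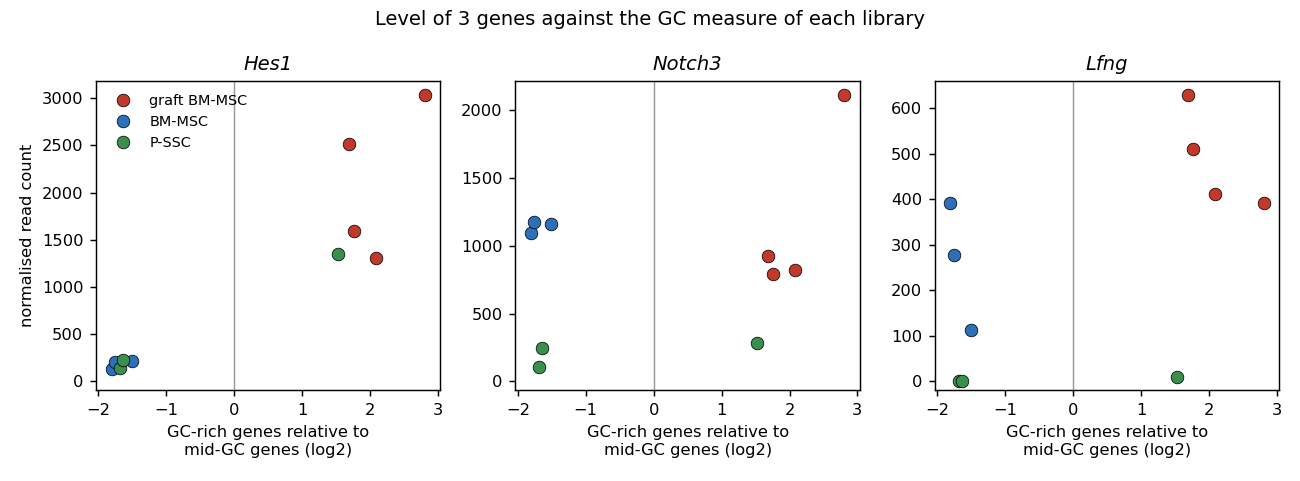
Normalised read count (vertical axis) of Hes1, Notch3 and Lfng against the level of GC-rich genes relative to genes of middle GC content in each library (horizontal axis, log2), 1 point per library and colours for groups. Hes1 is at 1303 or above in all 5 libraries on the right and at 229 or below in the 5 on the left, while Notch3 and Lfng are low in all 3 P-SSC libraries on both sides.

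Hey1, the other target, encodes a related repressor that acts in vessels and bone. It was at 514, 0, 0 and 45.7 in graft BM-MSC 1 to 4, at 338, 244 and 74.0 in BM-MSC 1, 2+4 and 3, and at 29.8, 29.3 and 84.3 in P-SSC 1, 2+5 and 4. Graft BM-MSC 1 exceeded every other library, and 2 graft libraries were listed at 0. No difference passed the test (log2 difference of graft BM-MSCs to BM-MSCs -3.88, 95% interval -8.52 to 0.75, adjusted p = 0.274, limma). The zeros enlarge this difference: on the linear scale the Hey1 mean was 140 in the graft and 219 in BM-MSCs, a ratio of 0.639. Hey1 was listed at 0 where Hes1 was highest, in graft BM-MSC 2 and 3. These libraries also had the largest shares of zeros among genes at 100 or above in the rest of their group (8.78% and 2.54%). Whether Hes1 and Hey1 moved apart in the graft can therefore not be told from these values.

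Over the members, 2 of 7 (Notch3 and Hes1) rose and 0 fell in the graft relative to P-SSCs, against 18.1% of all genes called, 6.08% of them as higher and 12% as lower. In graft BM-MSCs against BM-MSCs 1 of 7 (Hes1) was higher, against 7.67% of all genes called (2.61% higher and 5.06% lower). In P-SSCs against BM-MSCs 1 of 7 (Notch3) was lower, against 9.15% of all genes called (4.57% higher and 4.58% lower). Groups did not overlap for 1, 1 and 2 of the 7 members, against 26.6%, 25% and 30.9% of all genes. The median log2 difference of the members was 1.35, -0.11 and -0.65, against -0.47, -0.53 and 0.00 over all genes. With 7 members a single call is 14.3% of them, and these shares are not read as a departure from the background. Quantile normalization moved the median of all genes to -0.02 and -0.16 in the graft comparisons. It also changed the split of all calls from 830 higher and 1634 lower to 1247 and 1241 against P-SSCs, and from 356 and 690 to 588 and 435 against BM-MSCs, and the calls of Notch3 and Hes1 kept their direction (log2 difference 2.51, 2.52 and 3.53). The 2 graft comparisons share the graft libraries, and both P-SSC comparisons share the P-SSC libraries, so the values are given side by side and not as independent results.

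**Figure D4:**
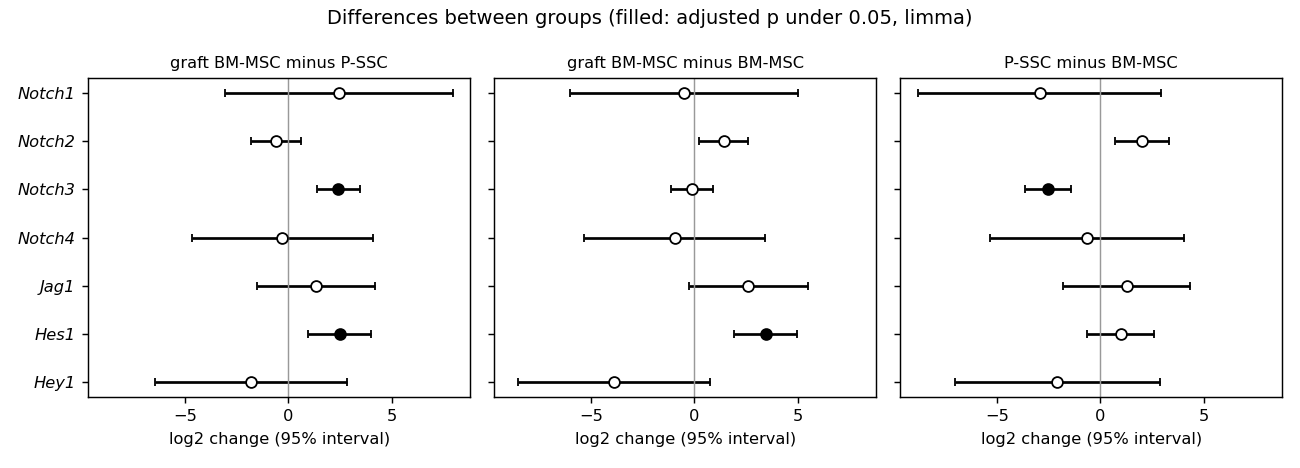
Log2 difference of 7 members (horizontal axis) with its 95% interval in the 3 comparisons. Filled points passed an adjusted p under 0.05 (limma): Notch3 and Hes1 are to the right in graft BM-MSCs against P-SSCs, Hes1 in graft BM-MSCs against BM-MSCs, and Notch3 to the left in P-SSCs against BM-MSCs.

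The rest of the pathway was followed in a list of 68 genes, of which 60 were in the table and 58 were tested. The graft had 5 of them higher and 6 lower than P-SSCs, and 0 higher and 2 lower than BM-MSCs. P-SSCs had 3 higher and 2 lower than BM-MSCs. These are 19.0%, 3.45% and 8.62% of the genes tested, against 18.1%, 7.67% and 9.15% of all genes. In the graft against P-SSCs the split was 6 higher and 2 lower after quantile normalization and 7 and 2 after a correction for GC content, and against BM-MSCs it was 2 and 1 and then 4 and 1.

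Lfng (lunatic fringe), a Golgi glycosyltransferase that extends O-fucose on the receptors and thereby changes which ligands they answer, had the lowest adjusted p of the genes named here. Graft BM-MSC 1 to 4 had counts of 412, 628, 393 and 511, and BM-MSC 1, 2+4 and 3 had 393, 113 and 277. It was listed at 0 in P-SSC 1 and P-SSC 2+5 and was at 9.69 in P-SSC 4. Marrow cells of both kinds thus lay above all P-SSCs. The log2 difference was 7.76 for graft BM-MSCs to P-SSCs (SE 1.05, adjusted p = 0.000579, limma) and -6.72 for P-SSCs to BM-MSCs (SE 1.13, adjusted p = 0.00296, limma), and it was 1.05 for graft BM-MSCs to BM-MSCs (95% interval -1.29 to 3.38, adjusted p = 0.559, limma). Both calls held without any 1 library (adjusted p from 0.000138 to 0.0213, limma) and with the GC set as a covariate (adjusted p = 0.0187 and 0.000839, limma). Like Notch3, Lfng was high in both marrow populations and low in periosteum. The other 4 tested glycosylation genes passed no test. Rfng (radical fringe) was between 960 and 1075 in the 4 graft libraries and at 1088 in P-SSC 4, against at most 186 in the 5 libraries low in GC-rich genes, the same division as Hes1, and was picked out here after its values were seen.

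Of 5 ligand-like genes tested, 3 were called lower in the graft than in P-SSCs (12% of all genes were) and 2 higher in P-SSCs than in BM-MSCs (4.57% of all genes were). The other genes, named here after their values were seen, passed no test and had their lowest means in P-SSCs. Dlk2, a Delta-like relative of Dlk1, had means of 52.4 in the graft, 10.1 in BM-MSCs and 0.425 in P-SSCs (adjusted p = 0.321 for the graft to P-SSCs, limma), and Egfl7, a secreted protein with EGF repeats, had 36.9, 29.7 and 2.26 (adjusted p = 0.810, limma). Ccn3, a secreted matricellular protein that can bind Notch1, was the most abundant of them, at 24878, 16573 and 18815 in P-SSC 1, 2+5 and 4 and at 15.7, 2.11 and 2.96 in BM-MSC 1, 2+4 and 3. Graft BM-MSC 1 to 4 held 64.97, 0, 0 and 1102, so that P-SSCs lay far above both. The log2 difference was -10.24 for graft BM-MSCs to P-SSCs (SE 2.19, adjusted p = 0.00840, limma) and 11.71 for P-SSCs to BM-MSCs (SE 2.34, adjusted p = 0.00855, limma), and both calls held without any 1 library (adjusted p from 0.00109 to 0.0450, limma). The first was lost with the GC set as a covariate (-10.16, adjusted p = 0.143, limma) and in edgeR (-5.99, adjusted p = 0.0682). On the linear scale the mean was 292 in the graft and 20088.5 in P-SSCs, a ratio of 0.0145, a smaller difference than the log-scale fit gave. Dner, a neuronal transmembrane protein with EGF repeats, was at 16.6, 3.82 and 271 in P-SSCs and at 0 in every marrow library, at least 39.6-fold higher than in the graft and at least 31.5-fold higher than in BM-MSCs against the mean floor of 3 reads per library. P-SSC 4 held most of these reads, and without it, in a calculation added after the data were seen, the bounds were 4.16-fold and 3.31-fold. Such bounds, here and for Dlk1, cover counting error only and not the larger share of zeros in graft libraries. The call against the graft (adjusted p = 0.0176, limma) held without any 1 library and missed the threshold in edgeR (adjusted p = 0.0852), and the call against BM-MSCs (adjusted p = 0.0385, limma) was lost without graft BM-MSC 1, 3 or 4, without any BM-MSC library and without P-SSC 1 (adjusted p up to 0.112, limma). Dlk1, an imprinted Delta-like protein of progenitor cells, was at 26.0, 8.92 and 58.2 in P-SSCs and at 0 in every graft library, at least 12.6-fold lower in the graft (7.09-fold without P-SSC 4), and its call (adjusted p = 0.0317, limma) was lost without any 1 graft library, P-SSC 1 or P-SSC 4 (adjusted p up to 0.0900, limma), with the GC set as a covariate (adjusted p = 0.109, limma) and in edgeR (adjusted p = 0.0888).

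Of the receptor-cleaving enzymes, 2 of 10 were higher and 2 lower in the graft than in P-SSCs, against 6.08% and 12% of all genes. Furin, the protease that cuts the receptors during their maturation, was at 1069, 751, 807 and 585 in graft BM-MSC 1 to 4 and at 136, 52.2 and 259 in P-SSCs, with 270, 221 and 373 in BM-MSCs. The graft lay above both steady-state groups, and the log2 difference to P-SSCs was 2.67 (SE 0.57, adjusted p = 0.00840, limma), while that to BM-MSCs was 1.48 (adjusted p = 0.138, limma). The call held without any 1 library and was lost with the GC set as a covariate (1.60, adjusted p = 0.232, limma). Of the 3 Aph1 genes, which encode scaffold subunits of gamma-secretase, Aph1c was higher and Aph1a lower in the graft than in P-SSCs, and Aph1b was not called. Aph1c had a mean of 185 in the graft and 30.4 in P-SSCs (log2 difference 2.54, SE 0.73, adjusted p = 0.0360, limma), a call lost without graft BM-MSC 2, BM-MSC 1 or 2+4, or P-SSC 1 or 2+5 (adjusted p up to 0.0957, limma), with the GC set as a covariate (2.597, adjusted p = 0.186, limma) and in edgeR (adjusted p = 0.0759). Aph1b, its close paralog on chromosome 9, with which it may share reads, had means of 514 in the graft, 298 in P-SSCs and 235 in BM-MSCs, with every graft library above all others (log2 difference 0.84 to P-SSCs, adjusted p = 0.220, and 1.18 to BM-MSCs, adjusted p = 0.133, limma). Aph1a was at 215, 253, 192 and 376 in the graft and at 953, 739 and 1189 in BM-MSCs (log2 difference -1.91, SE 0.38, adjusted p = 0.0151, limma). That difference was -1.18 after a correction for GC content (adjusted p = 0.159, limma), and the call was lost without BM-MSC 1 or 3 (adjusted p up to 0.0785, limma). The difference of Aph1a to P-SSCs was -1.32 (adjusted p = 0.0362, limma), or -0.59 after the GC correction (adjusted p = 0.426, limma), and that call was also lost without 7 of the 10 libraries (graft BM-MSC 1 or 3, any BM-MSC library, P-SSC 1 or 2+5).

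Among the other targets, members of the Hes and Hey families differed from each other. Heyl, a Hey-family repressor known as a target of Notch3 in vascular smooth muscle, was abundant in marrow, at 5668, 1320, 2168 and 4844 in graft BM-MSC 1 to 4 and at 2010, 4811 and 1445 in BM-MSC 1, 2+4 and 3, against 919, 1067 and 602 in P-SSC 1, 2+5 and 4. Every marrow library lay above every P-SSC library, and the log2 difference of the graft to P-SSCs was 1.83 (SE 0.56, adjusted p = 0.0463, limma), a call that held in 2 of 10 fits without 1 library (without graft BM-MSC 2 or BM-MSC 2+4, adjusted p up to 0.127 in the others, limma) and was lost with the GC set as a covariate (2.30, adjusted p = 0.177, limma). The difference of P-SSCs to BM-MSCs was -1.52 (adjusted p = 0.179, limma). Hes6, a relative of Hes1, had a mean of 739 in the graft and 247 in P-SSCs (log2 difference 1.86, SE 0.52, adjusted p = 0.0312, limma), and this call held in 3 of 10 such fits (without graft BM-MSC 2, BM-MSC 2+4 or P-SSC 4, adjusted p up to 0.128 in the others, limma). With the GC set as a covariate the Hes6 difference was 0.60 (adjusted p = 0.583, limma), and edgeR did not call it (adjusted p = 0.102). Hey2, the third Hey gene, was at 18.8, 103 and 25.6 in BM-MSCs and at 0 in all graft libraries, at least 20.04-fold lower in the graft (adjusted p = 0.0127, limma). BM-MSC 2+4 held most of these reads, and the bound without it was 9.04-fold, a value added after the data were seen. The Hey2 call held without any 1 library, missed the threshold in edgeR (adjusted p = 0.0866) and after quantile normalization (adjusted p = 0.169, limma), and coincided with the larger share of zeros in graft libraries. In P-SSCs Hey2 was at 1.04, 0 and 7.75, lower than in BM-MSCs (adjusted p = 0.0490, limma), a call that held in 1 of the 10 such fits (without P-SSC 4) (adjusted p up to 0.153 in the others, limma).

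Myc, a growth regulator and Notch target in several cell types, was at 10921, 25004 and 4981 in P-SSC 1, 2+5 and 4, above 963, 4288, 2727 and 3450 in graft BM-MSC 1 to 4 and 1077, 2276 and 2264 in BM-MSC 1, 2+4 and 3. The log2 difference was -2.15 for the graft to P-SSCs (SE 0.61, adjusted p = 0.0345, limma) and 2.65 for P-SSCs to BM-MSCs (SE 0.65, adjusted p = 0.0288, limma). The first was -1.42 after a correction for GC content (adjusted p = 0.193, limma) and -0.9963 with the GC set as a covariate (adjusted p = 0.607, limma). Without P-SSC 1 or 2+5 both were lost, as was the first without graft BM-MSC 1 or 3 or BM-MSC 2+4 or 3 and the second without any BM-MSC library (adjusted p up to 0.152, limma). In the nuclear complex, RBPJ itself (Rbpj) was detected in every library. P-SSCs (1084 to 1282) lay above the graft (241 to 767) and BM-MSCs (451 to 587). Its log2 difference was -1.31 for the graft to P-SSCs (adjusted p = 0.0513, limma) and 1.17 for P-SSCs to BM-MSCs (adjusted p = 0.153, limma). Called in any comparison by limma were 0 of 9 tested nuclear complex genes and 0 of 10 corepressors. Likewise 0 of 9 trafficking and turnover genes and 0 of 5 ligand-activating genes were called. Of all genes, 18.1% were called in the graft against P-SSCs, 7.67% in the graft against BM-MSCs and 9.15% in P-SSCs against BM-MSCs. At an unadjusted p under 0.05 in limma these 4 classes held 1, 2, 1 and 1 genes in the graft against P-SSCs, 1, 5, 2 and 0 in the graft against BM-MSCs and 1, 2, 1 and 0 in P-SSCs against BM-MSCs, where 32.8%, 25.5% and 18.7% of all genes did so. The same count was 2 of 7 members in each comparison.

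**Figure D5:**
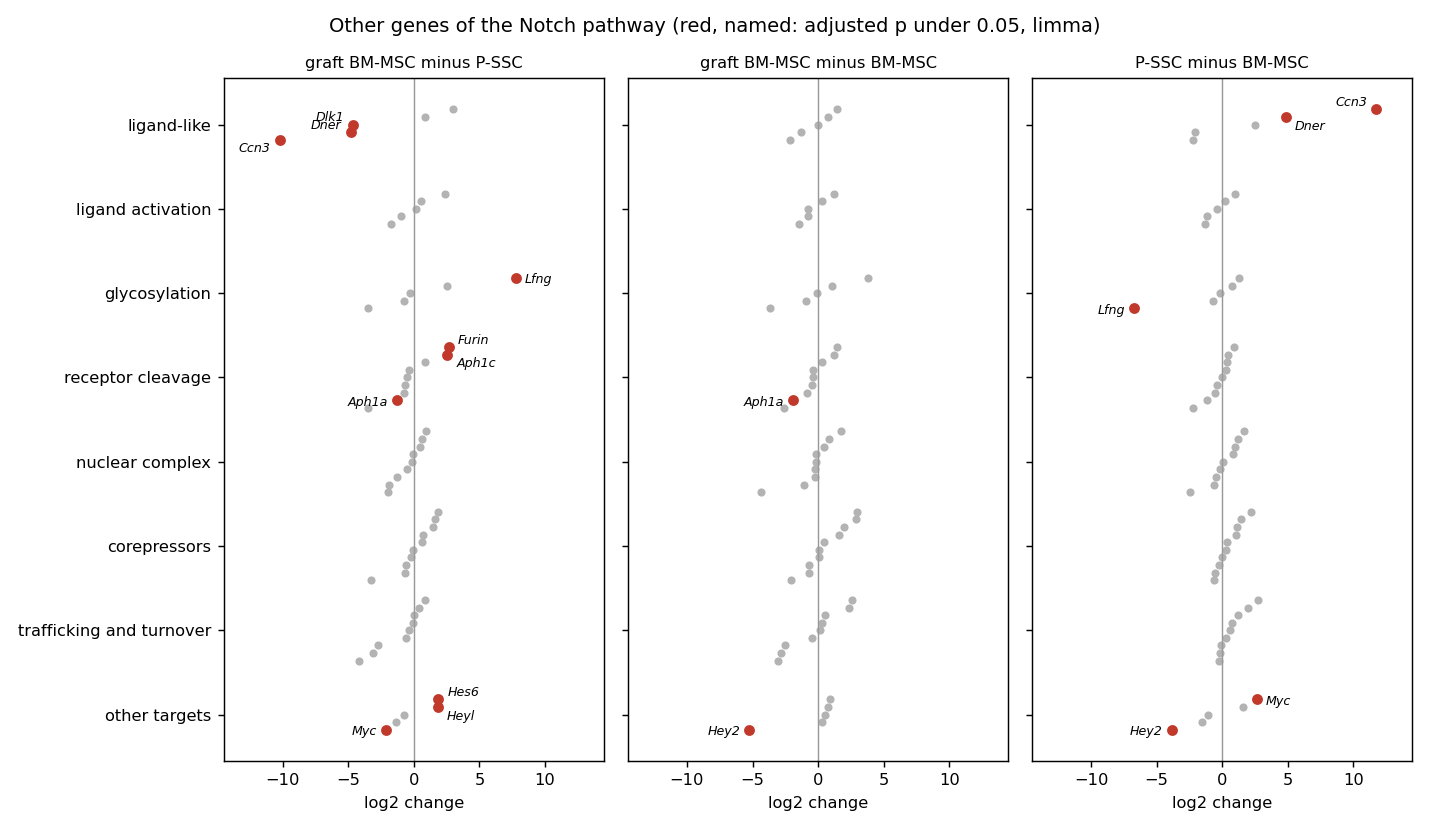
Log2 difference (horizontal axis) of the 58 other Notch pathway genes by class in the 3 comparisons, 1 point per gene, with 1 gene not shown. Red named points passed an adjusted p under 0.05 (limma). Lfng is at 7.76 and Ccn3 at -10.24 in graft BM-MSCs against P-SSCs, and both take the opposite sign in P-SSCs against BM-MSCs.

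Markers of other cells were measured beside these genes, since in bulk samples fewer cells of a type and less RNA per cell cannot be told apart. The 10 mural markers (pericyte and smooth muscle), cells in which Notch3 and Heyl are well known, summed to between 13062 and 22084 in graft BM-MSCs, 34965 and 45414 in BM-MSCs and 21491 and 38208 in P-SSCs. The graft sums lay mostly below those of P-SSCs, but the markers did not run alike. Acta2 was at 7454 to 22978 in P-SSCs and at most 3323 in the graft. Myh11, Cspg4, Mcam (at 0 in every graft library), Des, Kcnj8 and Abcc9 also had lower medians in the graft than in P-SSCs. Rgs5, Pdgfrb and Tagln had higher ones, Rgs5 with 379 in the graft, 1016 in BM-MSCs and 122 in P-SSCs. Pdgfrb, which stromal cells also express, had medians of 17669, 33763 and 8402 and made up most of the graft and BM-MSC sums. The part of mural cells in the Notch3 values was not tested. Of 10 endothelial markers 7 were in the table. Their sum was 927 to 1411 in graft BM-MSCs, 871 to 1373 in BM-MSCs and 7683 to 10527 in P-SSCs. Tek (3254 to 6869) and Ramp2 (1591 to 7079) made up most of the P-SSC sum. Cdh5 was at 0 in all marrow libraries and at most 58.6 in P-SSCs. Emcn and Tie1 went the other way, at 0 in every P-SSC and graft library and at 24.3 to 81.5 and 57.4 to 204 in BM-MSCs. Vwf had its lowest median in P-SSCs (1.27), and Esam overlapped between P-SSCs and BM-MSCs. The 12 hematopoietic markers summed to between 5025 and 56981 in the graft, 52190 and 133170 in BM-MSCs and 549 and 2641 in P-SSCs. Their sums were thus higher, like Notch3 and Lfng, in both marrow groups. Hba-a1, S100a8 and Lyz2 made up most of the marrow sums, and the markers did not run alike. S100a8 was at 1343 or above in marrow and at most 30.6 in P-SSCs. Adgre1 and Mpo were at 0 in every graft library, and Itgam and Elane had a median of 0 there. Csf1r overlapped between all groups. The part of hematopoietic cells in the Notch3 and Lfng differences was not tested. The 6 muscle markers in the table summed to between 239 and 1025 in the graft, 1402 and 2558 in BM-MSCs and 930 and 2962 in P-SSCs. In marrow nearly all of this sum was Cdh15, at 239 to 1025 in the graft and 1396 to 2558 in BM-MSCs, while the defining markers Pax7, Myf5, Myod1, Acta1 and Ckm were at 0 in every graft library and at most 5.92 in BM-MSCs. In P-SSCs Acta1 was at 205.5 to 893 and Pax7 at 56.1 to 204, and the part of muscle cells in the P-SSC values was not tested. Osteoblast markers summed to between 61207 and 82645 in the graft and to at least 189817 elsewhere. Col1a1 made up most of the sums outside the graft, with 185603 to 401795 in P-SSCs and 9531 to 33746 in the graft. Ibsp (16821 to 60194 in the graft, 1625 to 2930 in P-SSCs) and Sp7 (316 to 1495 and 52.3 to 176) went the other way. Bglap and Dmp1 overlapped between these groups. Chondrocyte markers summed to between 33075 and 71666 in BM-MSCs and to at most 3884 elsewhere. Most of the BM-MSC sum was Col2a1, and Acan, Col9a1 and Matn3 were at 0 in every graft library. Sox9 was at 114 to 933 in the graft and 23.2 to 65.8 in BM-MSCs.

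The genes whose log2 values over the 10 libraries were most like those of a member were sought among 9546 genes with a mean of at least 100. For Notch3 they were Bsg (Pearson r = 0.976), Gdpd2 (r = 0.956) and Susd2 (r = 0.955). Bsg ranged from 17001 to 26363 in the 7 marrow libraries and from 7686 to 11789 in P-SSCs. For Jag1 they were Pi4k2a (r = 0.938), Wdfy3 (r = 0.932) and Csnk1d (r = 0.921). For Hes1 they were Ppp1r35 (r = 0.984), Nenf (r = 0.982) and Ankrd13c (r = 0.981). Each of the last 3 was higher in the 5 libraries high in GC-rich genes than in the 5 low ones, Ppp1r35 at 271 to 549 against 23.9 to 33.7. The points share libraries, depth and GC set, and these correlations are descriptions.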

How the data were processed

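Reads were aligned by the authors to the mouse genome (GRCm38, STAR 2.6.1d per the methods, while the submitters' processing notes list GRCm39 and STAR 2.5, with featureCounts) and the authors deposited 1 normalised signal value per gene and library. Each value was a whole multiple of the value of 1 read (100% within 0.01), so reads were recovered. Exon length and GC content came from GENCODE M21 (GRCm38), matched by Ensembl ID (99.8% found), and promoters from RefSeq. The table holds no coordinates.

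Genes whose mean reached 10 were analysed as log2(value + 1) with limma 3.58.1 (R 4.3.3): 1 mean per group over all 10 libraries, 7 residual degrees of freedom, empirical Bayes with trend, two-sided, Benjamini-Hochberg, threshold 0.05. The recovered reads were also tested with edgeR 4.0.16 (quasi-likelihood) and DESeq2 1.42.0. Methods were checked on simulated data that held no GC sets and no added zeros, so the check does not cover these features. Other alternatives were pseudocounts of 0.1 and 5, no filter, quantile normalization, a GC correction, the GC set as a covariate, the libraries low in GC-rich genes alone, a replicate block and leaving out each library. Floors cover counting error only. Replicates of a group differed by a chi-square of at least 72.2 per degree of freedom.

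The members, pathway lists and tests were chosen with earlier results of these data known. A gene of the pathway list that counts toward its numbers is not reported here by name or value. Otherwise the text names all members, up to 3 called pathway genes of lowest p per class and comparison (Aph1a in the graft against P-SSCs is a further one), and the 3 genes most like the leading receptor, ligand and target.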

Additional observations from a re-analysis of the deposited data

Results flagged for a closer look

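Among 20 genes examined in the 4 graft libraries, 5 had 1 library far from the others by Dixon's test on the linear counts. Chance flags about 1 in 20 groups of normally distributed values. Counts are skewed and hold zeros, so that rate does not apply here and the flags are a description. Notch3 was at 2117 in graft BM-MSC 3, with the next library at 923. Without that library the log2 difference to P-SSCs was 2.10 (adjusted p = 0.00802, limma). Notch4 was at 63.0 in graft BM-MSC 4 and listed at 0 in the other graft libraries. Hey1 was at 514 in graft BM-MSC 1, with 45.7 as the next value. Ccn3 was at 1102 in graft BM-MSC 4, with 64.97 as the next value. Aph1c was at 255 in graft BM-MSC 2, with 169 as the next value. The cause was not tested.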

How the results depend on the processing

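With 3 or 4 libraries a group, and with graft libraries that hold many zeros, low genes such as Notch4, Dll1 and Hey2 limit what depth can show. Calls are given in the order graft against P-SSCs, graft against BM-MSCs, and the steady-state groups against each other. The main numbers were 2464, 1046 and 1248 over all genes, 2, 1 and 1 over the members and 11, 2 and 5 over the wider list. With the GC set as a covariate the first 2 comparisons gave 1081 and 40 over all genes, 0 and 0 over the members and 2 and 0 over the wider list. edgeR gave 1531, 316 and 619 over all genes, 1 and 0 over the members in the first 2, and 4, 1 and 3 over the wider list. DESeq2 gave 1944 over all genes and 8 over the wider list in the second, and 2 members in the third. A GC correction gave 2 members and 5 of the wider list in the second comparison, a pseudocount of 5 gave 2 members in the third, and quantile normalization 3 of the wider list in the third and 3 in the second. Within the libraries low in GC-rich genes the third gave 2040 over all genes and 10 over the wider list. Without 1 library the ranges were 1583 (without P-SSC 1) to 3005 (without P-SSC 4), 476 (without BM-MSC 2+4, and 477 without BM-MSC 3) to 1584 (without P-SSC 4) and 917 (without BM-MSC 3) to 1495 (without graft BM-MSC 2) over all genes. They were 1 to 2, 0 to 1 and 1 to 2 over the members, and 4 to 14, 1 to 7 and 2 to 6 over the wider list, where each highest number was without P-SSC 4.

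The replicate numbers did not pair the libraries (correlation of deviations between libraries of the same number -0.02 to 0.03). A replicate block left 2 residual degrees of freedom and gave 269, 3 and 54 calls over all genes, 0 members in each comparison and 1, 0 and 0 of the wider list. The block with a GC correction gave 323, 3 and 66, again 0 members, and 1, 0 and 0.

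Of 427 log2 differences of members under an alternative, 363 kept direction and side of the threshold, 38 changed sign, 22 lost the threshold and 4 passed it. None of the differences that changed sign had passed the test. In graft BM-MSCs against P-SSCs, Notch1 was -0.78 with the GC set, -0.95 with the block and -0.43 with the block and GC correction. Notch2 was 0.13 with the GC correction. Notch4 was 1.31 after quantile normalization, 0.26 in edgeR, 0.22 in DESeq2, and -1.79 to 1.5 when 1 library was left out. Jag1 was -0.60 with the GC set, -0.60 with the block, -0.14 with the block and GC correction and -0.15 without P-SSC 2+5. Hey1 was 1.60 in edgeR, 1.53 in DESeq2, 0.84 with the block and 1.38 with the block and GC correction. In graft BM-MSCs against BM-MSCs, Notch1 was 0.066 with a pseudocount of 5, 0.091 with the GC correction, 1.503 in edgeR, 1.51 in DESeq2 and -1.48 to 1.85 when 1 library was left out, the highest without graft BM-MSC 1. Notch3 was 0.066 with the GC correction, 0.0079 in edgeR, 0.020 in DESeq2, 0.031 with the block and GC correction and -0.44 to 0.035 when 1 library was left out, above 0 without graft BM-MSC 1 or 4. Notch4 was 0.67 after quantile normalization, 0.23 in edgeR, 0.18 in DESeq2 and -2.44 (without graft BM-MSC 4) to 0.47 (without BM-MSC 3) when 1 library was left out. Jag1 was -0.30 with the GC set. In P-SSCs against BM-MSCs, Notch4 was -2.44 (without P-SSC 4) to 0.77 (without BM-MSC 3) when 1 library was left out, and 0.25 without P-SSC 1 or 2+5. The cause was not tested.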
